A study of Mus musculus with 8 samples.

Results

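Blood vessel endothelium lines every vessel of the embryonic lung, and 35 genes that mark or shape it were followed in whole mouse lung at E13.5, in midgestation. They were taken by symbol from a fixed list of endothelial receptors, ligands, junction proteins, surface and secreted proteins and transcription factors, and all 35 were found among the 55401 genes of the deposited count table. RNA sequencing covered 4 mutant libraries, labelled Tbx4tetOcre with the Myrf allele MyrfE6, and 4 libraries labelled cre control. Tbx4 is a gene of the early lung mesenchyme, and a tetO transgene is switched on by a tetracycline-responsive activator. The labels name neither that activator nor its induction, do not describe the allele, and do not say which transgenes the controls carry. The sex and number of embryos per library are not given either, and p-values therefore describe the spread between these libraries, which may be technical.

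Vascular endothelial growth factor (VEGF) binds the receptors Kdr and Flt1 and drives the growth of endothelial cells, while angiopoietins act through Tek and its relative Tie1 to steady or loosen the vessel wall. ETS factors such as Erg and Fli1 and SOX factors such as Sox17 and Sox18 switch on the endothelial gene program. In the developing lung a capillary plexus forms in the mesenchyme around the epithelial tubes, below the mesothelium, where Myrf, a membrane-bound transcription factor, is expressed.

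The libraries held 17799899 to 48679134 counts, and mutant replicate 2 was the deepest. Myrf had 92.4, 84.4, 85.3 and 91.6 CPM (counts scaled to library size with TMM factors) in mutant libraries 1 to 4, against 114, 115.5, 107 and 120.5 CPM in control libraries 1 to 4, so the groups did not overlap. The libraries also differed in sex-linked transcripts. Xist, made from the inactive X chromosome of females, was at 0.596 and 0.370 CPM in mutant replicates 1 and 2, which held 133.8 and 143.8 CPM of 4 Y-linked genes. Control replicates 2 and 3 held 869 and 863 CPM of Xist and at most 0.0562 CPM of the Y-linked genes, and the other 4 libraries held both. Sex and genotype can therefore be told apart only in part. Log2 fold changes are therefore also given from a fit with the Y-linked level as a covariate and from these 4 libraries alone, called mixed libraries here, for each endothelial gene that either fit moves by over 1.5 times.

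All 35 genes passed the low-count filter, with 35 to 67 raw counts per library for the lowest, Esm1, and 4519 to 13880 for the highest, Cdh5. Levels of different genes were compared as CPM per kilobase of exon. Cdh5, which encodes the adherens junction protein VE-cadherin, led the order with 66.3 ± 2.38 CPM per kilobase in mutant and 62.4 ± 4.08 in control libraries (SD, n = 4 each). Aplnr, the apelin receptor of veins and capillaries, followed with 64.0 ± 3.14 in mutant and 57.1 ± 3.66 in control libraries. Next came Plvap, a diaphragm protein of capillary pores, Cldn5, a tight junction claudin, and Egfl7, a secreted matrix protein, at 49.2 to 51.7 CPM per kilobase in controls.

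At the low end stood Flt1, Angpt2, Esm1 and Vwf, with 2.37, 1.31, 1.22 and 1.20 CPM per kilobase in control libraries. Vwf encodes von Willebrand factor, which captures platelets and is known as a marker of larger vessels. Esm1 encodes endocan, a secreted product of tip cells at growing vessel ends, and Angpt2 encodes the angiopoietin released by endothelium itself. Of 34 pairs of neighbours in this order, the control ranges overlapped in 26 and were apart in 8, among them Egfl7 over Esam, Calcrl over Flt1 and Flt1 over Angpt2. Flt1 stood well below Kdr, the other VEGF receptor, which had 12.4 ± 0.544 in mutant and 12.3 ± 0.338 CPM per kilobase in control libraries. The exon length sums every annotated isoform, so a gene with many isoforms or long untranslated ends has a lower value per kilobase.

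**Figure D1:**
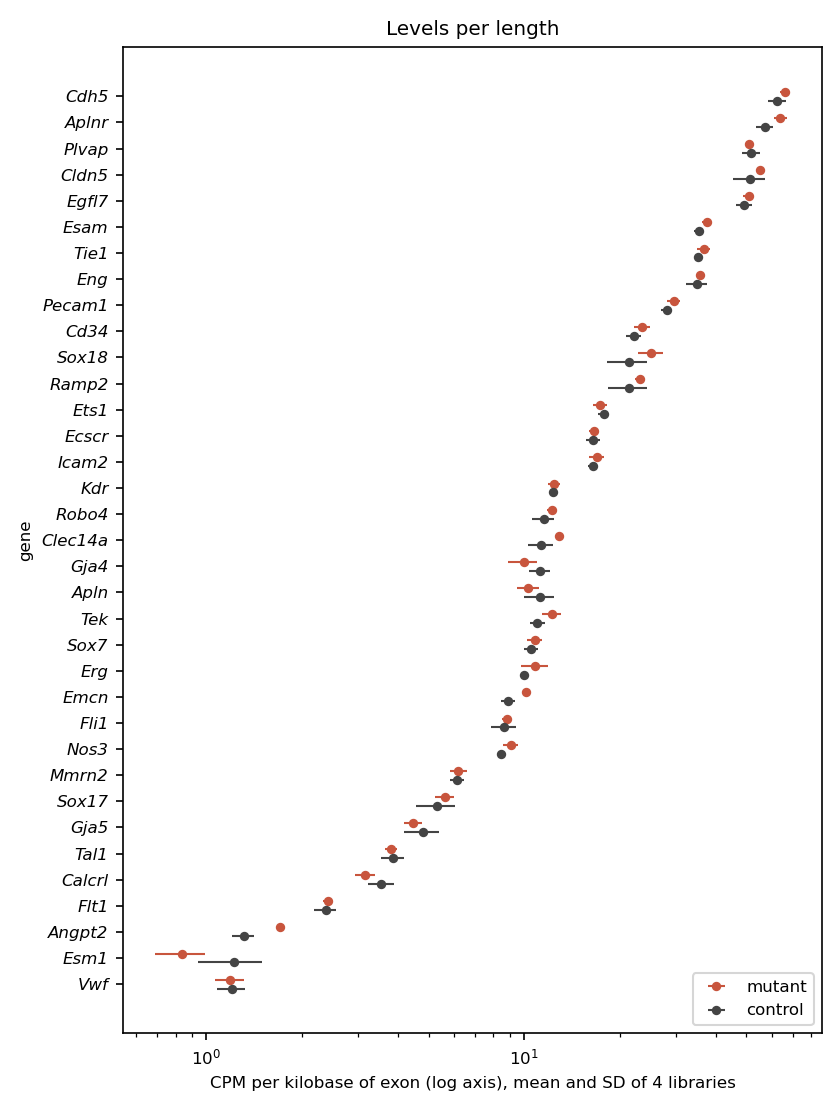
Levels of the 35 endothelial genes as CPM per kilobase of exon on a log axis, in order of the control mean, with points for the mean and bars for the SD of 4 mutant (red) and 4 control (grey) libraries. Cdh5 stands at the top with 66.3 in mutant and 62.4 in control libraries, Vwf at the bottom of the control order with 1.19 in mutant and 1.20 in control libraries.

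Between the genotypes the endothelial panel differed little. Of 35 genes 1 rose in the mutant lung, Emcn, 0 fell and 34 did not pass (edgeR quasi-likelihood test, adjusted p below 0.05), which is 2.86% of the panel beside 1.49% of all 15788 genes tested. Over all genes, 0.564% were called higher and 0.931% lower in the mutant, 89 and 147 genes, but the balance turned to 39 higher and 29 lower with the Y-linked covariate and to 55 higher and 32 lower in the mixed libraries. In both of these fits 0 endothelial genes passed. At an unadjusted p below 0.05 there were 9 endothelial genes, 7 with positive and 2 with negative log2 fold changes, or 25.7% beside 13.9% of all genes. The log2 fold change was positive for 26 of 35 genes, 74.3% beside 50% of all genes, and the median was 0.05 beside 0.00 over all genes. In whole lung, a difference in the number of endothelial cells and one in RNA per cell cannot be told apart.

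In the fit with no covariate, the differences still allowed were small for most of the panel. For 30 of 35 genes the whole 95% interval of the fold change in that fit lay within 1.25-fold in either direction. The other 5 were Angpt2, Sox18, Gja4, Calcrl and Esm1. Such intervals were not computed with the Y-linked covariate or in the mixed libraries. For Tek, the SE there was 0.0722 and 0.0829, beside 0.0535 with no covariate, so wider differences are allowed. Mutant and control libraries did not overlap in 3 genes, Emcn, Aplnr and Angpt2, all higher in the mutant, which is 8.57% of the panel beside 7.37% of all genes tested, 3.31% higher and 4.06% lower. The summed level of the panel was 2640, 2717, 2753 and 2670 CPM in mutant libraries 1 to 4, against 2450, 2594, 2638 and 2620 CPM in control libraries 1 to 4. Every mutant sum lay above the control sums, by a narrow margin. Control replicate 1 was the lowest of the controls in 18 of the 35 genes, and without it the median log2 fold change was 0.03. With the Y-linked covariate and in the mixed libraries the median was 0.10 in each.

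**Figure D2:**
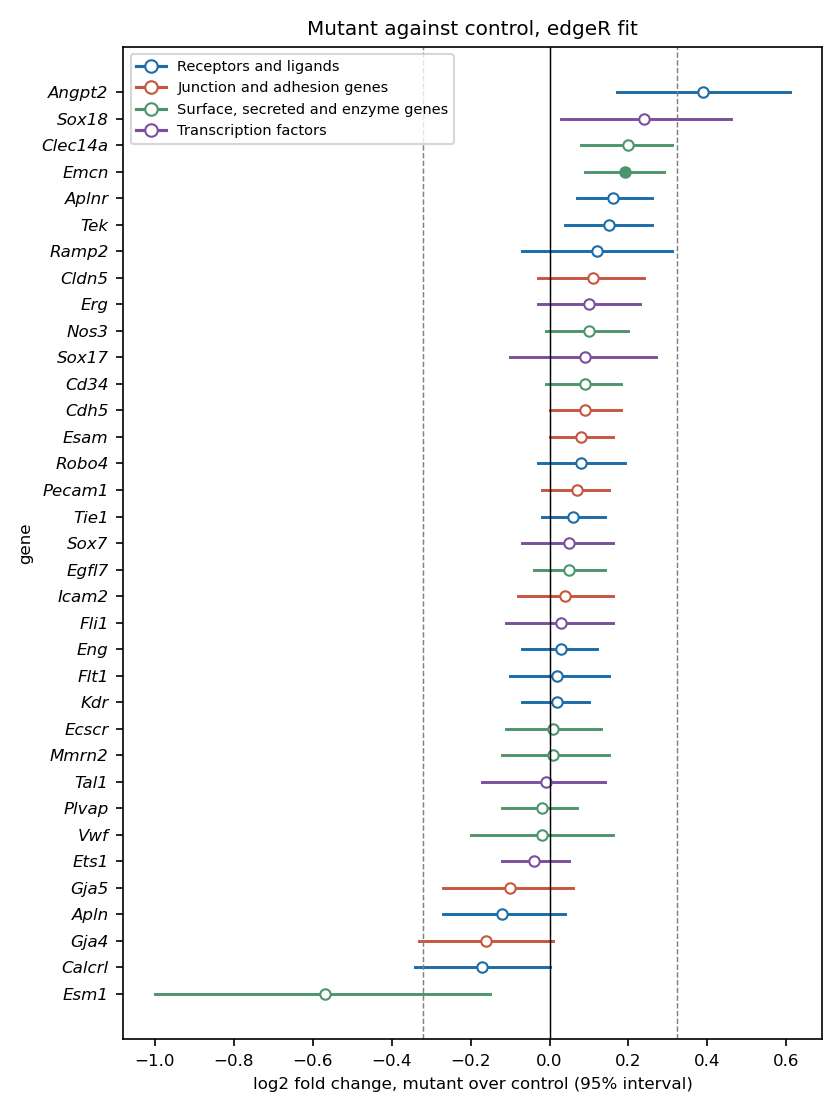
Log2 fold change of each endothelial gene, mutant over control, with its 95% interval, colored by role; the filled point passed at an adjusted p below 0.05, and dashed lines mark 1.25-fold in either direction. In this fit with no covariate, Emcn, at 0.19, is the 1 filled point, and the intervals of 30 of 35 genes lie between the dashed lines.

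Emcn (ENSMUSG00000054690.17, chromosome 3, 137341067 to 137432185, plus strand, GRCm38) encodes endomucin, a sialoglycoprotein on the surface of capillary and venous endothelium that hinders leukocyte adhesion. It had 55.0, 56.8, 53.1 and 54.0 CPM in mutant libraries 1 to 4, against 49.3, 44.4, 49.5 and 48.9 CPM in control libraries 1 to 4. All 4 mutant libraries lay above all controls, and control replicate 2 was the lowest. The level was 14.2% higher in the mutant, with a log2 fold change of 0.19 (SE 0.0469, 95% interval 0.09 to 0.29, adjusted p = 0.0479). This p lay close to the threshold, and the call was lost in 10 of 18 alternatives, including 7 of the 8 that left out 1 library. With the Y-linked level as a covariate the log2 fold change was 0.13 (adjusted p = 0.50). Within the mixed libraries it was again 0.13 (adjusted p = 0.65), with 53.1 and 54.0 CPM in mutant and 49.3 and 48.9 CPM in control libraries.

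Clec14a and Tek also had positive values at an unadjusted p below 0.05. Clec14a (chromosome 12, 58264720 to 58269290, minus strand) encodes a C-type lectin of the endothelial surface that binds the matrix protein Mmrn2. It had 61.1, 59.9, 58.4 and 56.9 CPM in mutant libraries, against 58.3, 49.5, 51.2 and 47.5 CPM in control libraries 1 to 4. Control replicate 1 overlapped the mutants, and without it the gene passed (log2 fold change 0.26, adjusted p = 0.0173), while with all libraries it did not (log2 fold change 0.20, SE 0.0552, adjusted p = 0.0815). The value was 0.13 both with the Y-linked covariate (adjusted p = 0.612) and in the mixed libraries (adjusted p = 0.761). Mmrn2 itself, multimerin 2, had a log2 fold change of 0.01 (95% interval -0.12 to 0.15). Tek (chromosome 4, 94739289 to 94874976, plus strand), the angiopoietin receptor also called Tie2, had 54.5, 58.7, 62.2 and 53.75 CPM in mutant libraries, against 48.5, 50.3, 54.8 and 53.2 CPM in control libraries 1 to 4. The ranges overlapped (log2 fold change 0.15, SE 0.0535, adjusted p = 0.192).

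The promoters of Emcn, Tek and Clec14a are shown because these genes passed in at least 1 setting and have a RefSeq window, and because ETS factors are known to act at endothelial promoters through a GGAA core. The windows are 300 bases of RefSeq on GRCm38.p6, mostly upstream of the gene start, and capitals mark the letters CAGGAA or, on the other strand, TTCCTG.
Emcn, chr3:137340828-137341127, plus strand: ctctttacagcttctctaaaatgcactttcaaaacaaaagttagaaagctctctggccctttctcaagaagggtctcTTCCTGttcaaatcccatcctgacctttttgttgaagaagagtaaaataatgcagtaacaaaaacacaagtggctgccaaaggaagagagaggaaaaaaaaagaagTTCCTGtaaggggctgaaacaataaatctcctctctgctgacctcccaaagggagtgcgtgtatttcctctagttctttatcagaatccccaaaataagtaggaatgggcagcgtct
Tek, chr4:94739039-94739338, plus strand: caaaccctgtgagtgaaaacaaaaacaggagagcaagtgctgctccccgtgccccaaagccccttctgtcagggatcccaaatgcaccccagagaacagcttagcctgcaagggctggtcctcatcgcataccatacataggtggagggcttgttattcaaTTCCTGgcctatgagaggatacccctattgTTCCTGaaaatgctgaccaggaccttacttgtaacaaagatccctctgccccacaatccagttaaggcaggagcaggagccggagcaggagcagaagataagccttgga
Clec14a, chr12:58269209-58269508, minus strand: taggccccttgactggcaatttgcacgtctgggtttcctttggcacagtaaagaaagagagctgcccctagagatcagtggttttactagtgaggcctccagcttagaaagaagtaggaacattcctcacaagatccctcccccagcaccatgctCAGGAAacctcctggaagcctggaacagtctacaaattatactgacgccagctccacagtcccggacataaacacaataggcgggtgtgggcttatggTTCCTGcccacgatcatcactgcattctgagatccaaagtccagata
Each of the 3 windows held 2 matches. Windows were matched by symbol for 18 of the 35 genes, 23 windows in all, and 14 of these (60.9%) held CAGGAA on either strand, beside 30.6% of all 32851 windows in the table. By gene, 13 of 18 had a match (72.2%, beside 33.4% of all genes), and Kdr, Flt1, Cldn5, Gja5 and Tal1 had none. The related letters CCGGAA, an ETS motif common in housekeeping promoters, were in 1 of 23 windows (4.35%), that of Kdr, beside 14.9% of all. Letters bound by SOX factors, AACAATG and ACAATAG, were in 2 windows each (8.70%), beside 3.78% and 2.37% of all windows. AGATAA, bound by GATA factors, was in 3 windows, beside 11.2% of all, and TGTTTAC, bound by FOX factors, in 0 of 23, beside 3.65%. Each motif was searched on both strands, CAGGAA and CCGGAA cannot cover the same GGAA, and a match describes letters, not binding.

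Among the receptors and ligands, 9 of 11 genes had positive log2 fold changes, 81.8% beside 50% of all genes. At an unadjusted p below 0.05 in edgeR there were 4, or 36.4% beside 13.9% of all genes. After adjustment over all genes 0 passed in edgeR and 1, Aplnr, passed with DESeq2. Aplnr had 226, 230, 252 and 239 CPM in mutant libraries, against 203, 197, 224 and 222 CPM in control libraries 1 to 4. The groups came close to each other without overlap, and the difference missed the threshold (log2 fold change 0.16 with SE 0.0458, adjusted p = 0.0814). Aplnr also passed without the low-count filter and with the replicate number as a block. Its ligand Apln, made by sprouting tip cells and X-linked, went the other way in sign, at 30.2, 36.0, 31.5 and 31.7 CPM in mutant and 32.3, 38.8, 38.2 and 31.7 CPM in control libraries. Its log2 fold change was -0.12 (95% interval -0.27 to 0.04), with -0.04 under the Y-linked covariate and -0.01 within the mixed libraries.

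Angpt2, the endothelial angiopoietin that antagonizes or activates Tek depending on context, had the largest positive value of the panel. It had 6.31, 6.27, 6.30 and 6.42 CPM in mutant libraries, against 4.38, 5.02, 5.25 and 4.62 CPM in control libraries 1 to 4. The groups did not overlap and the mutant libraries lay close together, yet the threshold was missed (log2 fold change 0.39 with SE 0.106, adjusted p = 0.0695). It passed in 0 of 18 alternatives, with adjusted p from 0.0537 to 0.351. Its log2 fold change was 0.50 within the mixed libraries. Raw counts of Angpt2 were low, 82 to 306 per library.

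The VEGF receptors differed between the genotypes by less than the spread between libraries. Kdr had 111, 111.5, 118 and 106.5 CPM in mutant libraries, against 106, 111, 114 and 112 CPM in control libraries 1 to 4. The ranges overlapped, with a log2 fold change of 0.02 (95% interval -0.07 to 0.10). Flt1, which also yields a soluble decoy receptor, had a log2 fold change of 0.02 (95% interval -0.10 to 0.15). Tie1 and Eng, which encodes the BMP and TGF-beta co-receptor endoglin, had values of 0.06 (95% interval -0.02 to 0.14) and 0.03 (95% interval -0.07 to 0.12). Robo4, a guidance receptor that stabilizes vessels, measured 64.6 ± 2.33 CPM in mutant and 60.9 ± 4.81 CPM in control libraries (SD, n = 4 each). The log2 fold changes of all 5 receptors were farther above 0 with the Y-linked covariate, at 0.04 for Kdr, 0.11 for Flt1, 0.10 for Tie1, 0.09 for Eng and 0.18 for Robo4. In the mixed libraries they were 0.05, 0.12, 0.11, 0.10 and 0.19 for these genes.

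Calcrl and Ramp2 together form the adrenomedullin receptor, as the receptor and its accessory protein. Calcrl had 14.9, 15.0, 17.1 and 14.7 CPM in mutant libraries, against 17.7, 17.8, 18.8 and 15.0 CPM in control libraries 1 to 4. Mutant replicate 3 and control replicate 4 placed the groups over each other, and the log2 fold change of -0.17 (SE 0.0804, adjusted p = 0.356) was -0.06 with the Y-linked covariate and -0.03 within the mixed libraries. Ramp2 had 80.0, 75.8, 74.4 and 75.0 CPM in mutant libraries, against 60.6, 65.8, 71.7 and 83.7 CPM in control libraries 1 to 4. Its controls spread over a wider range than the mutants and enclosed them (log2 fold change 0.12, SE 0.0847, adjusted p = 0.615), and single controls decided the value. Without control replicate 4 the gene passed (log2 fold change 0.21, adjusted p = 0.0477), and without control replicate 1 the log2 fold change was 0.05. The value was 0.07 with the Y-linked covariate and 0.06 in the mixed libraries. In the GENCODE vM21 annotation, an earlier release than the vM25 used for counting, 33.4% of the exon bases of Ramp2 lie under exons of Vps25 on the same strand, so its counts are uncertain.

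Among the junction and adhesion genes, 5 of 7 had positive log2 fold changes, 71.4% beside 50% of all genes, and 0 passed in edgeR or DESeq2. Only 1, Esam, was at an unadjusted p below 0.05 in edgeR, or 14.3% beside 13.9% of all genes. Cdh5 had 264, 284, 285 and 281 CPM in mutant libraries, against 239, 268, 279 and 263 CPM in control libraries 1 to 4. Its ranges overlapped (log2 fold change 0.09, SE 0.0436, adjusted p = 0.388). The value was 0.16 with the Y-linked covariate (adjusted p = 0.231) and 0.18 in the mixed libraries (adjusted p = 0.238), and 0.04 without control replicate 1. Pecam1, the platelet-endothelial adhesion molecule CD31, had a log2 fold change of 0.07 (95% interval -0.02 to 0.15) and Icam2, an adhesion molecule for leukocytes, 0.04 (95% interval -0.08 to 0.16). Esam, an adhesion molecule of tight junctions, measured 108 ± 3.35 CPM in mutant and 102 ± 3.29 CPM in control libraries (adjusted p = 0.332). Cldn5 measured 78.4 ± 2.03 CPM in mutant and 72.7 ± 8.35 CPM in control libraries (SD, n = 4 each), with a log2 fold change of 0.11. With the Y-linked covariate and in the mixed libraries the log2 fold changes were 0.12 and 0.14 for Pecam1, 0.008 and 0.02 for Icam2, and 0.07 and 0.06 for Cldn5.

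The gap junction genes Gja4 and Gja5, which encode connexins and are known from arterial endothelium, had negative log2 fold changes. Gja4 had 18.2, 18.1, 16.1 and 14.6 CPM in mutant libraries, against 21.0, 18.5, 18.0 and 18.1 CPM in control libraries 1 to 4. Its ranges overlapped (log2 fold change -0.16, SE 0.0814, adjusted p = 0.386), and the value was -0.33 with the Y-linked covariate (adjusted p = 0.175) and -0.34 within the mixed libraries (adjusted p = 0.313). Gja5 measured 25.7 ± 1.64 CPM in mutant and 27.6 ± 3.46 CPM in control libraries (log2 fold change -0.10, 95% interval -0.27 to 0.06), and its value was -0.04 and -0.03 in these 2 fits.

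Of the surface, secreted and enzyme genes other than Emcn and Clec14a, Esm1 had the value farthest from 0. It had 1.81, 1.37, 1.71 and 2.14 CPM in mutant libraries, against 2.16, 3.21, 2.88 and 1.97 CPM in control libraries 1 to 4. The highest values were those of control replicates 2 and 3, the libraries of the female pattern, and control replicate 4 lay below mutant replicate 4. The difference missed the threshold (log2 fold change -0.57 with SE 0.201, adjusted p = 0.178), and the value was -0.11 within the mixed libraries and -0.14 with the Y-linked level as a covariate. Plvap, with a log2 fold change of -0.02 (95% interval -0.12 to 0.07), Egfl7 with 0.05 (95% interval -0.04 to 0.14) and Ecscr, an endothelial chemotaxis regulator, with 0.01 (95% interval -0.11 to 0.13) had intervals close around 0. Vwf measured 19.1 ± 1.98 CPM in mutant and 19.3 ± 1.91 CPM in control libraries, and Cd34, a sialomucin shared with blood progenitors, 171 ± 10.4 CPM in mutant and 161 ± 9.04 CPM in control libraries. Nos3, endothelial nitric oxide synthase, had a log2 fold change of 0.10 (95% interval -0.01 to 0.20). With the Y-linked covariate and in the mixed libraries the log2 fold changes were 0.16 and 0.17 for Nos3, 0.10 and 0.11 for Vwf, and 0.03 and 0.04 for Ecscr. They were -0.02 and -0.03 for Egfl7, 0.02 and 0.03 for Plvap, and 0.0022 and 0.0029 for Mmrn2.

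Of the transcription factors, 5 of 7 had positive log2 fold changes, 71.4% beside 50% of all genes, and 0 passed in edgeR or DESeq2. Only 1, Sox18, was at an unadjusted p below 0.05 in edgeR, or 14.3% beside 13.9% of all genes. Sox7, Sox17 and Sox18 form the SOXF group, which acts in vessel and, for Sox18, lymphatic development. Sox18 had 43.1, 44.3, 38.3 and 36.7 CPM in mutant libraries, against 29.4, 34.6, 33.1 and 41.2 CPM in control libraries 1 to 4. Control replicate 4 lay among the mutants, and with it the difference missed the threshold (log2 fold change 0.24 with SE 0.0969, adjusted p = 0.296), but it passed without it (log2 fold change 0.34, adjusted p = 0.0257). The log2 fold change was 0.11 with the Y-linked covariate and 0.10 within the mixed libraries. Sox17, known for arterial identity, had 26.9, 27.1, 29.0 and 24.5 CPM in mutant libraries, against 20.5, 24.7, 27.7 and 28.4 CPM in control libraries 1 to 4. Its log2 fold change of 0.09 was 0.13 with the Y-linked covariate, 0.14 in the mixed libraries and -0.0015 without control replicate 1. Sox7 had a log2 fold change of 0.05 (95% interval -0.07 to 0.16).

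The ETS factors Erg, Fli1 and Ets1 had log2 fold changes of 0.10 (95% interval -0.03 to 0.23), 0.03 (95% interval -0.11 to 0.16) and -0.04 (95% interval -0.12 to 0.05). Erg had 32.6, 36.9, 39.2 and 41.2 CPM in mutant libraries, against 35.01, 35.6, 34.8 and 33.8 CPM in control libraries 1 to 4, so that its mutants spread more widely than its controls. With the Y-linked covariate and in the mixed libraries the log2 fold changes were 0.21 and 0.23 for Erg, 0.14 and 0.15 for Fli1, -0.01 and 0.0014 for Ets1, and 0.0095 and 0.02 for Tal1. Tal1, a factor of blood and endothelial progenitors, measured 16.7 ± 0.721 CPM in mutant and 16.9 ± 1.38 CPM in control libraries (SD, n = 4 each). Ets1 was the ETS factor with the highest level per length, at 17.3 ± 0.895 in mutant and 17.8 ± 0.717 CPM per kilobase in control libraries, and it is also made outside the endothelium.

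**Figure D3:**
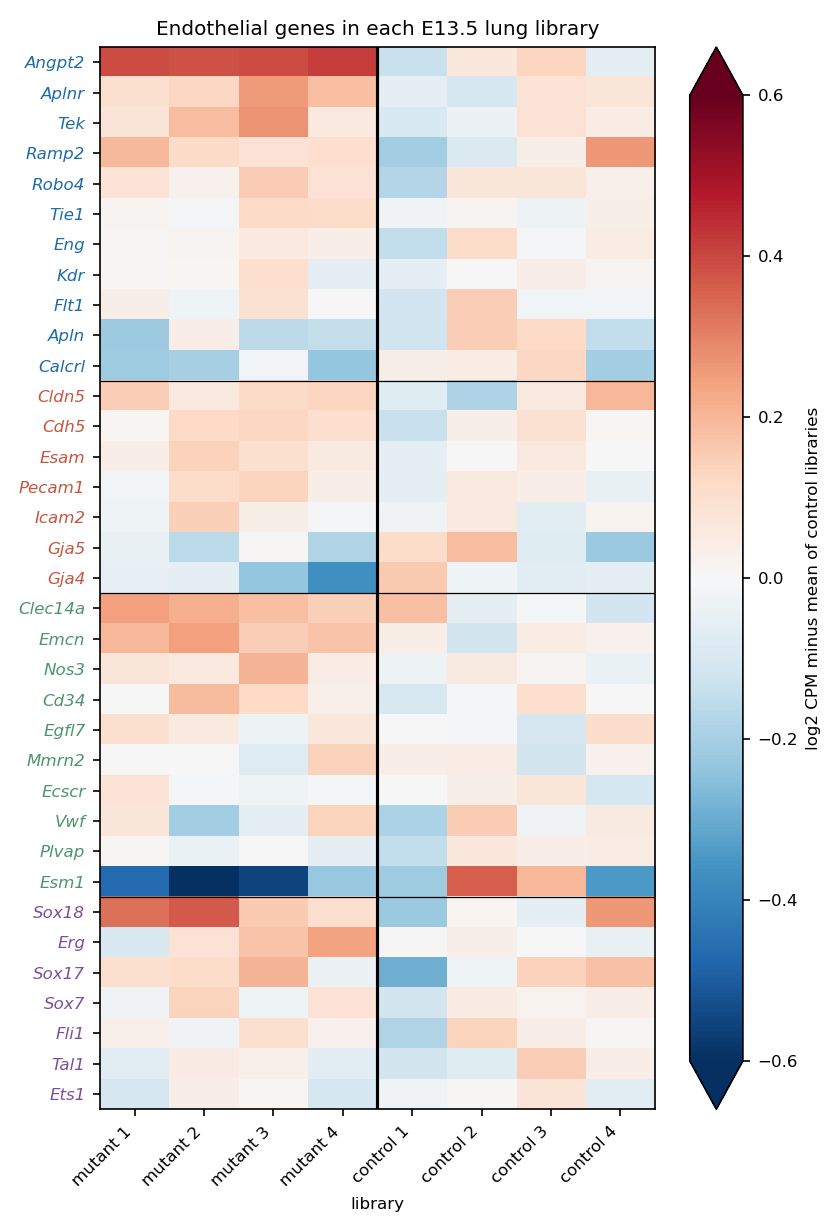
Heat map of the 35 endothelial genes (rows, grouped by role and ordered by fold change) in the 4 mutant and 4 control libraries (columns), as log2 CPM minus the mean of the control libraries. The mutant libraries of Angpt2, Aplnr and Emcn are all above the controls, while Esm1, Sox18, Ramp2, Sox17, Gja5 and Cldn5 spread widely among the controls.

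A set of 6 genes, chosen after their values were seen, is set out by library and by the sex-linked transcripts present. Among the mixed libraries, Aplnr had 252 and 239 CPM in mutant and 203 and 222 CPM in control libraries, and Angpt2 had 6.30 and 6.42 CPM in mutant and 4.38 and 4.62 CPM in control libraries. Since no library of Emcn, Aplnr or Angpt2 overlapped between the groups, no subset could, and the order there adds nothing. In Esm1 the groups overlapped among the mixed libraries, with 1.71 and 2.14 CPM in mutant and 2.16 and 1.97 CPM in control libraries.

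**Figure D4:**
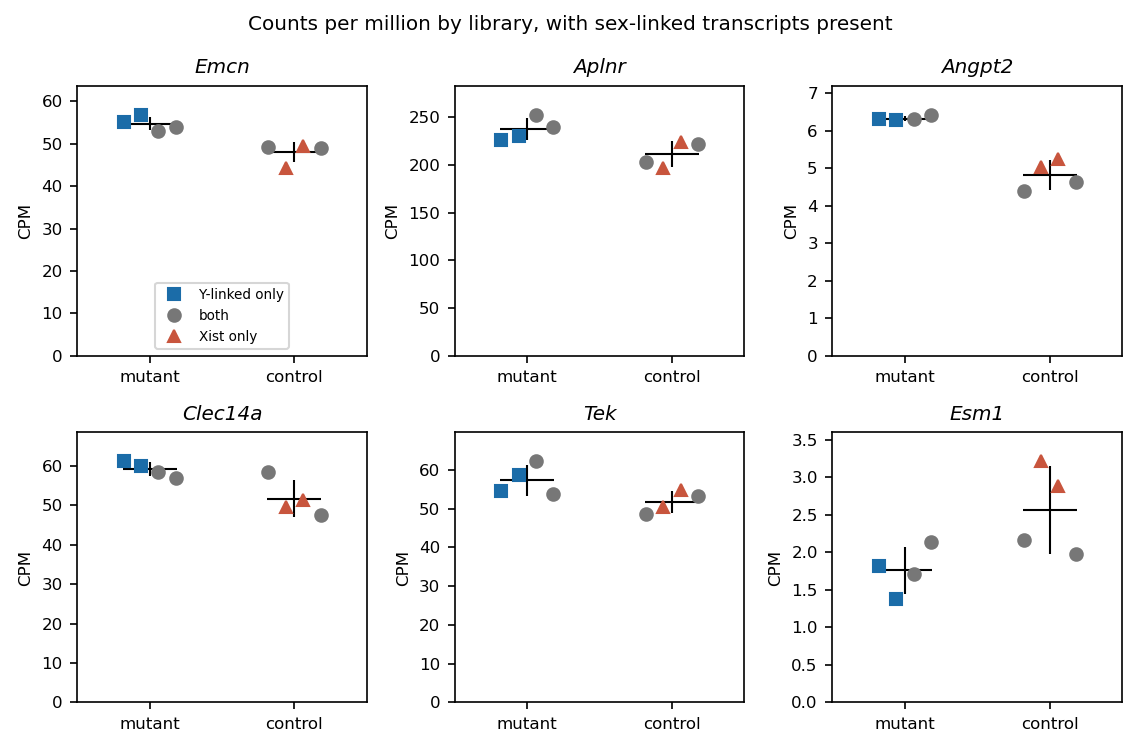
CPM of Emcn, Aplnr, Angpt2, Clec14a, Tek and Esm1 in the 4 mutant and 4 control libraries, with squares for libraries with Y-linked counts only, triangles for Xist only and circles for both; black lines give the mean and SD. Mutant libraries of Emcn, from 53.1 to 56.8 CPM, lie above all controls, whereas those of Esm1, from 1.37 to 2.14 CPM, overlap the controls.

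The call of a single gene depended on which libraries and settings were used. Emcn kept a positive log2 fold change between 0.13 and 0.21 in all 18 alternatives and passed in 8. In the remaining panel, 5 genes passed in at least 1 alternative, namely Aplnr and Clec14a in 3 each, Sox18 in 2, and Tek and Ramp2 in 1 each. All 5 had positive log2 fold changes in all 18 alternatives. The other 29 genes passed in none.

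**Figure D5:**
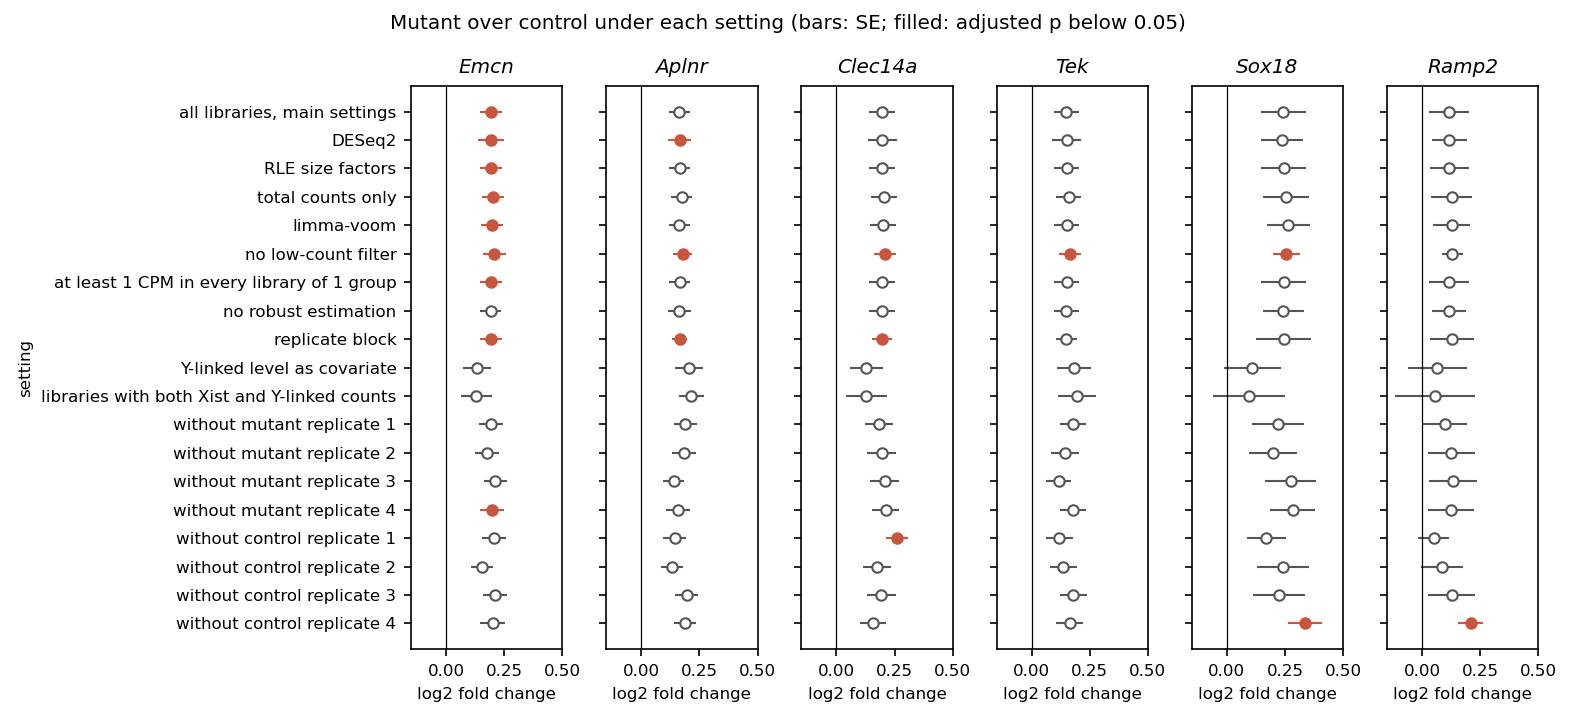
Log2 fold change, mutant over control, of the 6 endothelial genes that passed in at least 1 setting, for all libraries and for 18 alternatives; bars give the SE and filled red points passed at an adjusted p below 0.05. Emcn lies between 0.13 and 0.21 throughout, and Ramp2 passes only without control replicate 4.

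Further genes of vessels outside the panel were read from fixed lists. Of 17 tested ligands and co-receptors, among them the VEGF and angiopoietin ligands, 0 passed in edgeR or limma-voom and 1, Vegfd, with DESeq2, with 3 at an unadjusted p below 0.05 and a median log2 fold change of 0.02. Vegfa, the main VEGF ligand, had 166 ± 3.78 CPM in mutant and 175 ± 11.9 CPM in control libraries (log2 fold change -0.08, 95% interval -0.17 to 0.01), and Acvrl1, the endothelial receptor ALK1, had a log2 fold change of 0.05 (95% interval -0.06 to 0.17). Of 18 further endothelial genes 1 rose and 17 did not pass in edgeR, with 13 positive and a median of 0.09, while DESeq2 called 2, Lama4 and Sparcl1. At an unadjusted p below 0.05 in edgeR there were 7, all higher in the mutant, or 38.9% beside 13.9% of all genes. Groups did not overlap in 3, again all higher in the mutant, or 16.7% beside 7.37% of all genes. The gene that rose was Lama4, a laminin chain of vessel basement membranes, with 176, 183, 186 and 165 CPM in mutant libraries, against 140, 159, 158 and 142 CPM in control libraries 1 to 4 (log2 fold change 0.25, adjusted p = 0.0174). Its groups did not overlap, and in whole lung the cells that made it cannot be told apart. The log2 fold change lay between 0.215 and 0.318 in all 18 alternatives, and the gene passed in 15. With the Y-linked covariate the value was 0.30 (adjusted p = 0.0513). Leaving out mutant replicate 2 gave 0.235 (adjusted p = 0.0514), and leaving out control replicate 1 gave 0.215 (adjusted p = 0.0599).

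Of 9 artery genes outside the panel 1, Unc5b, fell and 8 did not pass, with 7 of 9 log2 fold changes negative and a median of -0.05. At an unadjusted p below 0.05 in edgeR there were 2, all lower in the mutant, or 22.2% beside 13.9% of all genes. Groups did not overlap in 2, again all lower in the mutant, or 22.2% beside 7.37% of all genes. Unc5b, a netrin receptor of arterial and tip endothelium that other lung cells may also make, had 93.9, 86.0, 91.4 and 94.3 CPM in mutant libraries, against 110.0, 112, 104 and 106 CPM in control libraries 1 to 4. Its groups did not overlap (log2 fold change -0.24 with SE 0.0403, adjusted p = 0.00443). The call was lost with the Y-linked covariate (log2 fold change -0.22, adjusted p = 0.0894) and within the mixed libraries (log2 fold change -0.21, adjusted p = 0.145). Of 4 tested vein genes 0 passed in edgeR, DESeq2 or limma-voom, and 0 reached an unadjusted p below 0.05. Ephb4, the venous ephrin receptor, and Nr2f2, the factor of venous identity, had log2 fold changes of -0.01 (95% interval -0.09 to 0.06) and -0.07 (95% interval -0.15 to 0.02). Whether artery genes differed from vein or capillary genes in their response was not tested.

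Markers of neighbouring cell types were read beside the panel, and their part in its values was not tested. The 6 lymphatic genes summed to 141 to 153 CPM in mutant and 144 to 153 CPM in control libraries, with 0 passing in edgeR, DESeq2 or limma-voom and 0 at an unadjusted p below 0.05. Flt4 and Lyve1 had log2 fold changes of -0.10 (SE 0.0528) and 0.00 (SE 0.0601). The 6 tested pericyte genes summed to 580 to 667 CPM in mutant and 596 to 669 CPM in control libraries, again with 0 passing in these tools and 0 at an unadjusted p below 0.05, and Notch3 and Pdgfrb had log2 fold changes of -0.06 (SE 0.0597) and 0.00 (SE 0.0343). Of 4 endocardial genes 1 fell, Npr3, a natriuretic peptide receptor, with 54.4 to 61.2 CPM in mutant and 66.4 to 76.7 CPM in control libraries (log2 fold change -0.35, adjusted p = 0.00125). The other 3 had positive log2 fold changes, and the list's median was 0.08. Groups did not overlap in 1 gene higher and 1 lower in the mutant, or 50% beside 7.37% of all genes. The endocardial list summed to 165.0 to 168.7 CPM in mutant and 169.9 to 179.4 CPM in control libraries, without overlap. In whole lung the cells that made Npr3 cannot be told apart.

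Blood cells share Pecam1, Cd34, Fli1, Ets1, Icam2 and Tal1 with endothelium, and platelets share Vwf. The 8 macrophage and leukocyte genes summed to 99.5 to 106 CPM in mutant and 107 to 114 CPM in control libraries, without overlap. Of these genes, 5 had negative and 3 had positive log2 fold changes. Only 1, the mannose receptor Mrc1, had groups without overlap, at 24.0 to 26.1 CPM in mutant and 27.1 to 32.9 CPM in control libraries. Mrc1 was also the 1 gene of the list that fell in edgeR (log2 fold change -0.29, adjusted p = 0.0334). Over 18 alternatives its log2 fold change ran from -0.34 to -0.24 and its adjusted p up to 0.234. The call was lost in 8 of them, including those without mutant replicate 1 or 2 and without control replicate 1, 3 or 4. The 5 tested platelet genes summed to 19.3 to 24.4 CPM in mutant and 18.8 to 25.0 CPM in control libraries, with 0 passing in these tools and 1, Pf4, at an unadjusted p below 0.05 (log2 fold change -0.36, SE 0.131), while Itga2b had 0.22 (SE 0.128). The 5 tested blood progenitor genes summed to 95.3 to 105 CPM in mutant and 84.9 to 95.1 CPM in control libraries, also without overlap but by a narrow margin. Of these, 0 passed in these tools and 2 were at an unadjusted p below 0.05. All 5 had positive log2 fold changes, from 0.03 to 0.23, with a median of 0.17. Kit and Lyl1, the 2 with the highest mean CPM, had log2 fold changes of 0.11 (SE 0.0582) and 0.03 (SE 0.101). Of 8 red cell genes 1 rose, the embryonic globin Hbb-bh1 (edgeR, log2 fold change 0.72, adjusted p = 0.00443), which was lost with the Y-linked covariate (0.54, adjusted p = 0.151) and in the mixed libraries (0.50, adjusted p = 0.314). The red cell sums of 1214 to 1487 CPM in mutant and 1263 to 1859 CPM in control libraries overlapped.

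Further markers were at or near 0, with at most 4 raw counts in any library for the vein gene Selp and at most 3 for the platelet gene Gp1bb. The remaining lists describe the tissue. Of 8 mesothelial genes 4 fell in edgeR, Upk3b, Wt1, Gpm6a and Lrrn4, and DESeq2 also called Aldh1a2. The list's sum was 187 to 225 CPM in mutant and 258 to 280 CPM in control libraries. Upk3b and Wt1 passed in all 18 alternatives. Gpm6a was lost in the mixed libraries (log2 fold change -0.62, adjusted p = 0.114). Lrrn4 was lost in 6 alternatives, with adjusted p up to 0.219, among them those without mutant replicate 2 and without control replicates 1, 2 or 3. Of 7 epithelial genes Sox2 rose, and of 7 mesenchymal genes Wnt2 fell, both in edgeR and in all 18 alternatives. Of 5 tested heart muscle genes 0 passed in edgeR or limma-voom and 1, Tnnt2, with DESeq2, while 1 was at an unadjusted p below 0.05 in edgeR, with sums of 87.8 to 142 CPM in mutant and 60.3 to 101 CPM in control libraries. Actc1 had a log2 fold change of 0.21 (SE 0.192), with 0.115 without control replicate 4 and 0.36 without control replicate 2, and Myh6, with 33.8 CPM in mutant replicate 1 and 2.20 to 12.01 CPM in the other 7 libraries, 1.42 (SE 0.934). The Myh6 value was 0.45 without mutant replicate 1 and 1.94 without control replicate 3, and it passed in the mixed libraries (1.81, adjusted p = 0.0176).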

How the data were processed

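Per the file headers, the authors deposited raw counts of read pairs per gene, obtained from featureCounts 1.6.4 (paired ends, strand option 2, GENCODE vM25 exons), and no option kept reads shared between genes or places. Per the submitters' processing notes, STAR, featureCounts and DESeq2 were used with GRCm38 (mm10). Per the labels' protocols, libraries were made with a stranded messenger RNA kit. The deposited exon length (bases, another value of the table) served to set levels per kilobase.

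Symbols were paired with 55141 of 55401 genes. In edgeR 4.0.16 (R 4.3.3), all 8 libraries entered 1 quasi-likelihood fit with the expression filter, TMM scaling, robust dispersions and no covariate, with Benjamini-Hochberg adjustment over 15788 genes and a threshold of 0.05. Intervals are 95% intervals from the same fit. Alternatives were DESeq2 1.42.0, limma-voom 3.58.1, other scalings and filters, a replicate block, a Y-linked covariate, the mixed libraries alone (Xist and the summed Y-linked genes each at 1 CPM or more), and each library left out. The fits were also run on simulated counts with known fold changes between the genotypes. These counts held no sex difference, so that run cannot show how the fits handle sex. The members, the 15 lists and the tests were chosen with earlier results of these data known. Genes outside the panel were named if they passed or, in lists where 0 passed, if they were the 2 with the highest mean CPM, not set per length. Vegfd, Sparcl1, Aldh1a2, Tnnt2, Selp and Gp1bb were named after their values were seen. Same-numbered libraries were not treated as pairs. At the smallest total, 3 counts are 0.169 CPM, a floor for counting error only.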

Additional observations from a re-analysis of the deposited data

Results flagged for a closer look

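Among the 35 endothelial genes and 2 groups, 70 sets of 4 libraries were examined for a library far from the other 3, and 5 were found, where chance gives about 1 in 20. Calcrl was at 17.1 CPM in mutant replicate 3, against 14.7 to 15.0 in the other mutants. Ecscr was at 30.6 CPM in mutant replicate 1, against 28.4 to 28.7 in the other mutants. Emcn was at 44.4 CPM in control replicate 2, against 48.9 to 49.5 in the other controls, and without that library its log2 fold change was 0.16 (edgeR, adjusted p = 0.131, with 0.00343 to 0.65 over its alternatives). Plvap was at 92.5 CPM in control replicate 1, against 105 to 107 in the other controls. Mmrn2 was at 22.6 CPM in control replicate 3, against 24.9 to 25.2 in the other controls.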

How the results depend on the processing

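The count of changed genes was 380 with DESeq2, 791 without the low-count filter, 142 without robust estimation, 68 with the Y-linked covariate and 87 in the 4 mixed libraries. The count of changed endothelial genes was 2, 5, 0, 0 and 0 in these fits, and 96 to 479 genes and 0 to 2 endothelial genes passed when single libraries were left out. With the replicate block 541 genes and 3 endothelial genes passed (Emcn, Aplnr and Clec14a), but deviations of same-numbered libraries correlated at only 0.0811, 0.0648, 0.181 and 0.0125, so the numbers were not taken as pairs. The median log2 fold change of the panel was 0.10 with the Y-linked covariate and 0.10 in the 4 mixed libraries, and 0.03 to 0.07 with single libraries left out. The cause was not tested, and the mixed and left-out fits also held fewer libraries. Of 35 endothelial genes 23 kept their sign in all 18 alternatives, and the 12 that did not were within 0.09 of 0. With the Y-linked covariate and in the mixed libraries, in that order, the log2 fold changes of changed sign were Egfl7 -0.0202 and -0.0283, Vwf 0.102 and 0.107, Plvap 0.0198 and 0.0267, Tal1 0.00946 and 0.0214 in the panel, and Ephb4 0.0344 and 0.0446, Nr2f2 0.00482 and 0.024, Notch3 0.0859 and 0.113 outside it, while Ets1 had 0.00138 in the mixed libraries. Without the low-count filter Tal1 had 0.00285. Lyve1 had 0.00141, 0.0102, 0.00925, 0.0141 and 0.000698 with RLE size factors, total counts, limma-voom, no low-count filter and a filter of 1 CPM. With single libraries left out, signs also changed for Kdr (-0.00498 to 0.0382), Flt1 (-0.0153 to 0.0742), Eng (-0.019 to 0.0661), Vwf (-0.0832 to 0.054), Mmrn2 (-0.0252 to 0.0461), Ecscr (-0.0255 to 0.0349), Fli1 (-0.0315 to 0.0726). The same held for Sox17 (-0.00154 to 0.148), Tal1 (-0.0496 to 0.0404), Acvrl1 (-0.00642 to 0.0874), Ephb4 (-0.0326 to 0.0068), Lyve1 (-0.0634 to 0.0413), Pdgfrb (-0.0226 to 0.0162), Lyl1 (-0.0588 to 0.0988). Of 630 fits of single endothelial genes, 585 kept sign and call, 10 lost a call, 10 gained one and 25 changed sign.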
